A study of Rattus norvegicus with 6 samples.

Results

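Expression of 34 genes of the neuronal cytoskeleton and of neurite growth was compared between rat primary cortical cells that received a Math2 expression vector and cells that received a control vector. The genes were taken by their symbol in the array's annotation and comprise 5 beta-tubulins, 4 alpha-tubulins, 6 microtubule-associated proteins, 2 members of the doublecortin family, 4 stathmins, 4 neurofilament subunits, 5 collapsin response mediator proteins and 4 growth cone proteins. Of these, 31 had at least 1 probe set that carried their symbol alone, 59 probe sets in all, among 14218 genes with such a probe set on the array. The brightness needed for testing was reached by 50 of these probe sets, which stood for 29 genes, among 18625 tested probe sets with 10417 gene symbols. Tuba1a, Tuba1b and Tuba1c were represented together by 1 probe set, and no probe set of Nefl or Nefh was bright enough to be tested.

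The gene called Math2 is now named Neurod6 and encodes a transcription factor of the basic helix-loop-helix class, found in cortical neurons. A dish of cortical cells received 13.3 µg of either vector together with 2.7 µg of a vector for a truncated nerve growth factor receptor, which served as a surface tag. Tagged cells were collected magnetically 24 h later, and 50 ng of their RNA was amplified and labelled over 2 cycles for Affymetrix Rat Genome 230 2.0 arrays. The study looked for genes that Math2 acts on. There were 3 control and 3 Math2 arrays, titled with the numbers 1 to 3 in each group. Signals are given below in the order of these numbers. Both groups thus carried the tag vector and went through the same selection. The labels give neither the strain and age of the animals nor the promoter of the vectors, and do not say whether the arrays of a group came from separate cultures. The p-values therefore describe nothing beyond the scatter of these arrays, and that scatter may be technical.

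Microtubules are built from dimers of alpha- and beta-tubulin. Microtubule-associated proteins and the doublecortin family bind along the polymer and steady it, stathmins hold free dimers and favour disassembly, and neurofilaments widen the axon. Collapsin response mediators carry guidance signals to the cytoskeleton of the growth cone, where Gap43, Basp1 and the Marcks proteins sit at the inner face of the membrane. Many of these genes are switched on as a cortical neuron is born and sends out its neurites.

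Factors of the Neurod group bind E-boxes, sites of the form CANNTG. RefSeq windows of the 250 bases before the annotated start (assembly GRCr8) were found for 24 member genes, 25 windows in all. The motif CANNTG, which reads the same on both strands at its fixed bases, occurred in 17 of the 25 windows (68%), beside 65.5% of 33469 windows of the same length over all genes. The form CAGATG, or CATCTG on the other strand, was in 4 member windows (16%) and in 14.0% of all. CAGCTG was also in 4 (16%) and in 11.97% of all, and CATATG was in 0 member windows and in 3.63% of all. The 3 specific forms are counted within CANNTG. The windows below are printed because the genes recur in the results: Tubb2a and Tubb2b for the comparison of the vectors, and Dclk1, Stmn3 and Dcx for the differences between replicate numbers. They lie at chr17:31001936-31002185 (plus strand, Tubb2a), chr17:30952836-30953085 (plus strand, Tubb2b), chr2:141782634-141782883 (plus strand, Dclk1), chr3:188802495-188802744 (minus strand, Stmn3) and chrX:112304162-112304411 (minus strand, Dcx). Each runs 5′ to 3′ and ends at the base before the start, with any E-box in capitals.
Tubb2a: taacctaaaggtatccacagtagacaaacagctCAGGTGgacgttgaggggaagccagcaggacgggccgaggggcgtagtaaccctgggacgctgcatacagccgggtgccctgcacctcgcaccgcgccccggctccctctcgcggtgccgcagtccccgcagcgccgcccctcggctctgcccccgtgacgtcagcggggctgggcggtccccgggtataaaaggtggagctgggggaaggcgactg
Tubb2b: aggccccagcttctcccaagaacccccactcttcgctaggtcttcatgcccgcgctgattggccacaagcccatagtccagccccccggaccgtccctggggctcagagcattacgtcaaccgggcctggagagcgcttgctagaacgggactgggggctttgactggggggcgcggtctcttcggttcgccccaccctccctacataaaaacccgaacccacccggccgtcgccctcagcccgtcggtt
Dclk1: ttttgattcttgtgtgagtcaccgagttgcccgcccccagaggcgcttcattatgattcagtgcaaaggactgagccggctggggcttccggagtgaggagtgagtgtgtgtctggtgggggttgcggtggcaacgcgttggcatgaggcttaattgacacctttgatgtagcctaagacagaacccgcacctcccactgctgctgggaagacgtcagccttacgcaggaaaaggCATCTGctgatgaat
Stmn3: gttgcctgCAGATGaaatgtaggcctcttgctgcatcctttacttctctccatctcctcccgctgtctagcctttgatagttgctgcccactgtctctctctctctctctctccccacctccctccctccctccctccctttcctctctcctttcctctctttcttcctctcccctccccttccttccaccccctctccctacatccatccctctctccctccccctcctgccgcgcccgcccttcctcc
Dcx: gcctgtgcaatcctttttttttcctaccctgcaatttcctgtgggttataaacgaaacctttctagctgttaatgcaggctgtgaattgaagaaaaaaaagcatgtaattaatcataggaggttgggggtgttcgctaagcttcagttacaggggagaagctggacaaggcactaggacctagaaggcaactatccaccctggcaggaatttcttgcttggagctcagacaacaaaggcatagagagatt
Tubb2a held 1 E-box, CAGGTG, whose first base lay 217 bases before the start. Dclk1 held CATCTG 15 bases before it and Stmn3 held CAGATG 242 bases before it. The windows of Tubb2b and Dcx held no match, which says only that these letters are not in these windows.

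The array median signal ran from 102 to 120. Spike-ins of the hybridization step, added in a constant amount, had a geometric mean signal of 2312 ± 366 on the control arrays and 4897 ± 1626 on the Math2 arrays (SD, n = 3). The groups did not overlap in this measure (exact permutation p = 0.1, the smallest that 3 against 3 arrays can give). Of the markers listed for other cells, 6 of 7 for astrocytes and 1 of 8 for microglia were bright enough to be tested. So were 7 of 7 for neural progenitors and 5 of 7 for fibroblasts and meninges. For the oligodendrocyte lineage it was 4 of 8, and for endothelium 2 of 6. A marker too dim for the test was not thereby absent. Neurod6 itself had signals of 386, 207 and 973 on the control arrays and of 312, 167 and 1546 on the Math2 arrays, a log2 difference of 0.021 (SE 0.745, exact permutation p = 1). Whether its probe set lies within the insert of the vector is not given in the sources used here, so these values do not check the labels.

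No member passed the test between Math2 and control cells. In limma, 0 of 50 member probe sets passed an adjusted p of 0.05, and 0 of all tested probe sets did (0%). The smallest adjusted p of a member was 1.00. With the replicate number as a block, 0 members passed (smallest adjusted p = 0.421 in limma) beside 3 of all tested probe sets (0.0161%). An unadjusted p under 0.05 was reached by 2 member probe sets (4%), Tubb2a and Tubb2b, beside 3.19% of all. With the block it was reached by 5 (10%), beside 7.70% of all, and with quantile normalization by 0, beside 2.59% of all. For the 19 probe sets described on every array for this comparison, exact permutation p-values were 0.1 for Tubb2a, Tubb2b and Marcks and 0.2 to 1 for the others. Fewer cells of a type and less RNA per cell cannot be told apart in such bulk samples.

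Each gene was represented by its brightest tested probe set, and its log2 difference is Math2 minus control on the log2(signal + 7.42) scale, where changes of dim probe sets appear smaller than they are. By this measure 17 of the 29 genes were above 0 and 12 below, with a median of 0.022, and 45.7% of all tested probe sets were above 0 with a median of -0.031. After quantile normalization, which gives all arrays the same distribution of signals, 14 genes were above 0 and 15 below, with a median of -0.012, beside 47.9% and -0.015 over all. The 29 log2 differences ran from -0.45 for Map6 to 0.59 for Dpysl4. The median rested on single arrays: it was 0.38 without control 3, 0.24 without Math2 1 and 0.12 without Math2 2, and -0.12 without control 2, -0.099 without control 1 and -0.060 without Math2 3. Without control 2 only 11 genes were above 0, and without control 3 there were 25.

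**Figure D1:**
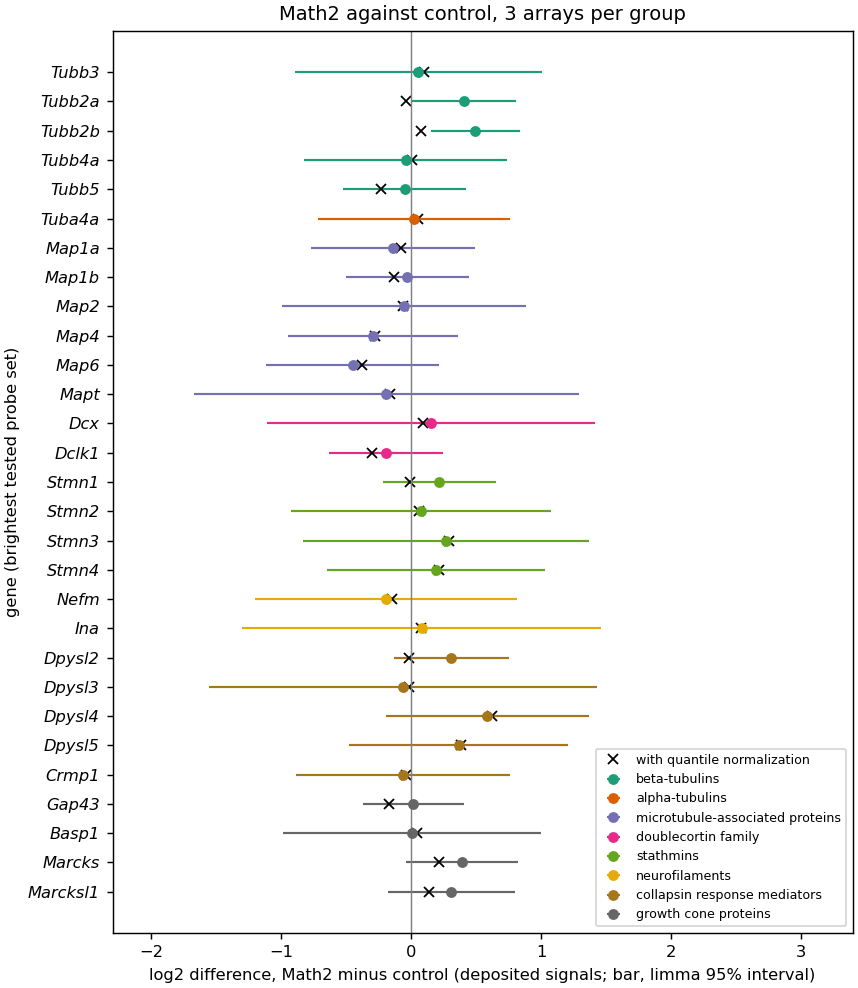
Log2 difference, Math2 minus control (x axis), of the brightest tested probe set of 29 member genes, grouped by family; circles are the deposited signals with the 95% interval from limma (3 arrays per group) and crosses the values after quantile normalization. In this fit, without the replicate block, only the intervals of Tubb2a and Tubb2b leave out 0, and their crosses lie at -0.037 and 0.073.

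Direction was also read within the numbered pairs, control 1 with Math2 1 and so on. Math2 lay above control in 3 of 3 pairs for 10 of 50 member probe sets (20%), beside 13.1% of all, and below it in 3 of 3 pairs for 3 (6%), beside 15.2% of all. The 10 were Tubb2a, Tubb2b, Map1b (1395357_at), Stmn1, Stmn2 (1370042_at), Dpysl2, Dpysl4, Dpysl5, Marcks (1375523_at) and Marcksl1. The 3 were Map4 (1373268_at), Map6 (1376907_at) and Dpysl3 (1391010_at). After quantile normalization 6 probe sets (12%), all among the 10, were above in every pair, beside 13.5% of all, and 4 (8%) were below in every pair, beside 13.7% of all. The 6 were Tubb2b, Map1b, Stmn2, Dpysl4, Dpysl5 and Marcks. All 3 Math2 arrays lay above all 3 control arrays for 3 member probe sets (6%), Tubb2a, Tubb2b and Marcks (1375523_at), beside 3.70% of all tested probe sets, and below them for 0, beside 4.30% of all.

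The beta-tubulins form the growing polymer with alpha-tubulin. In the fit without the replicate block they included the only member genes whose interval left out 0. With the block, the intervals of Stmn2 (1370042_at, 0.059 to 0.97) and Marcks (1375523_at, 0.035 to 0.75, and 1388157_at, 0.0063 to 1.55) left out 0 as well. Tubb2b, a neuronal isotype of migrating and differentiating neurons, had signals of 12783, 12808 and 14074 on the control arrays and of 20127, 18840 and 17011 on the Math2 arrays. The groups did not overlap, and the log2 difference was 0.49 (SE 0.154, 95% interval 0.15 to 0.84, exact permutation p = 0.1, limma adjusted p = 1.00), and 0.073 with quantile normalization. Tubb2a, a closely related neuronal isotype, measured 13861, 13214 and 13693 on the control arrays and 21463, 19012 and 14286 on the Math2 arrays. Here Math2 arrays 1 and 2 stood well above the controls and Math2 3 only just above them. Its log2 difference was 0.41 (SE 0.181, 95% interval 0.0044 to 0.81, exact permutation p = 0.1, limma adjusted p = 1.00) and turned to -0.037 with quantile normalization. Over the 5 genes 3 were above 0, with a median of 0.056, or 0.0060 with quantile normalization. The sign and size of this median rested on single arrays, since it was -0.21 without control 1, -0.0091 without control 2, 0.017 without Math2 3, 0.12 without Math2 2, 0.28 without Math2 1 and 0.41 without control 3. Tubb3, the class used to mark neurons, had a log2 difference of 0.056, Tubb5, which dividing and differentiating cells share, of -0.051, and Tubb4a, an isotype of mature brain, of -0.043. The tested probe set of Tubb3 and the 2 brighter ones of Tubb4a carry a suffix by which the maker marks probes that can match related transcripts, so signal from other tubulins cannot be told apart there.

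Among the alpha-tubulins only Tuba4a had a tested probe set of its own. It measured 119, 211 and 185 on the control arrays and 146, 175 and 191 on the Math2 arrays, overlapping groups with a log2 difference of 0.022 (SE 0.335). The probe set shared by Tuba1a, Tuba1b and Tuba1c, the main alpha-tubulins of young neurons and of other cells, was far brighter than the array median. Its signals were 12785, 14718 and 16076 on the control arrays and 16384, 18743 and 14525 on the Math2 arrays. Math2 3 fell among the controls. The log2 difference was 0.19 (SE 0.170, limma adjusted p = 1.00) and turned to -0.26 with quantile normalization, and this probe set is outside the counts of members.

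Before quantile normalization the brightest members lay above 0 together with nearly all other bright probe sets. Of the 187 probe sets that make up the brightest 1% tested, 186 were above 0, with a median log2 difference of 0.43. The 3 members among them, Tubb2a, Tubb2b and Dpysl2, had a median of 0.41. With quantile normalization the median of the 187 was -0.0042, that of the 3 members was -0.020, and 1 of the 3, Tubb2b, remained above 0. In the next 4% the median over all was 0.12 and that of 9 members was 0.052, and with quantile normalization these were -0.022 and -0.058. The hybridization spike-ins, brighter on every Math2 array, moved with the same groups, and their part in the values of bright members was not tested.

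**Figure D2:**
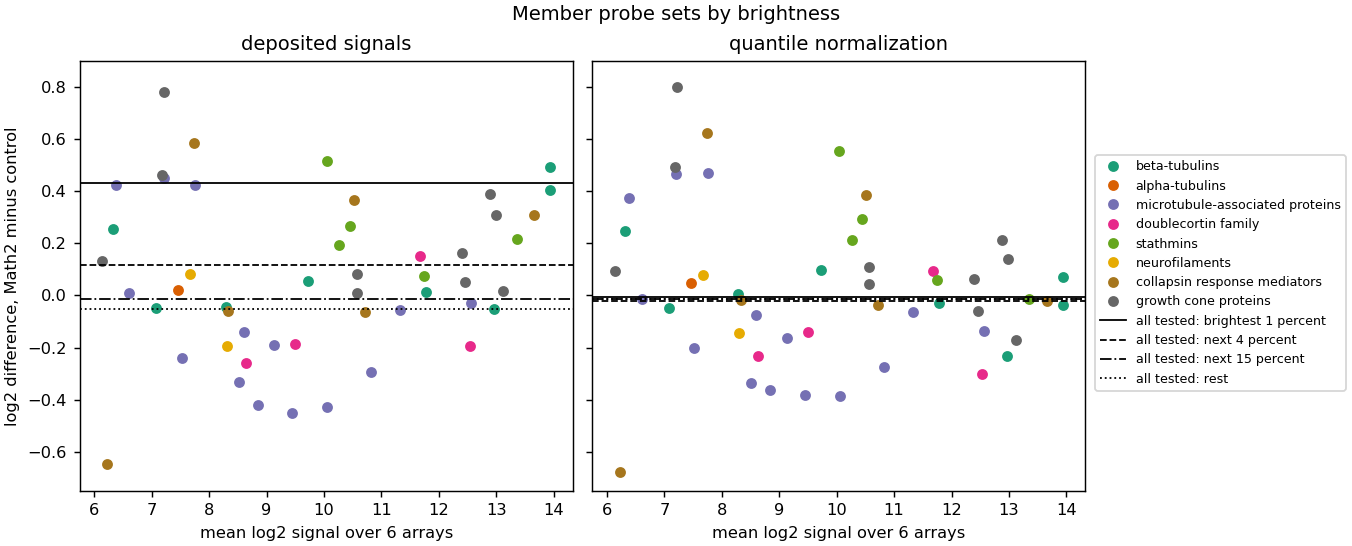
Log2 difference, Math2 minus control (y axis), of the 50 tested member probe sets against their mean log2 signal over 6 arrays (x axis), from the deposited signals (left) and after quantile normalization (right). Points are coloured by family and horizontal lines give the median of all tested probe sets in 4 classes of brightness: at the left the brightest 1% have a median of 0.43, and at the right all 4 lines lie just below 0.

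By their brightest probe sets, all 6 genes of the microtubule-associated proteins lay below 0 on the 6 arrays. They did so with and without quantile normalization, with a median log2 difference of -0.17, or -0.15 after it, and with none past the threshold. Without control 3 the median was -0.013, and without control 1, control 2 and Math2 3 it was -0.38, -0.29 and -0.39. Map6, which protects microtubules from cold, measured 610, 865 and 985 on the control arrays and 435, 729 and 636 on the Math2 arrays with its brightest probe set (1376907_at). Math2 was below control in every pair while the groups overlapped, and the log2 difference was -0.45 (SE 0.300, 95% interval -1.11 to 0.21, limma adjusted p = 1.00). Its other probe sets did not share that value: 1368345_at, at 212, 203 and 165 against 121, 205 and 171, had a log2 difference of -0.24 (SE 0.327). The third, 1371087_a_at, at 94.6, 127 and 139 against 142, 254 and 124, had one of 0.45 (SE 0.370), so the probe sets of Map6 differed in sign. Map4, a microtubule-associated protein of many cell types, had a second probe set (1373268_at) at 968, 1419 and 1357 on the control arrays and 947, 1051 and 760 on the Math2 arrays. It was below control in 3 of 3 pairs, with a log2 difference of -0.43 (SE 0.260), and the brighter Map4 probe set had one of -0.29 (SE 0.295).

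Map1b, an early protein of growing axons, measured 6546, 5263 and 6621 on the control arrays and 5889, 4863 and 7490 on the Math2 arrays, a log2 difference of -0.030 (SE 0.213). The groups overlapped almost fully, and the value was above 0 without control 1 (0.020), control 3 (0.028) or Math2 2 (0.12). Its dimmer probe sets had log2 differences of 0.43 (1395357_at) and 0.010 (1371003_at). Map1a, its counterpart in mature neurons, had one of -0.14 and Map2, the protein of dendrites, one of -0.055, with 0.42 from its dimmer probe set (1368411_a_at). Mapt, which encodes tau of axons, had log2 differences of -0.19, -0.42 and -0.33 with its 3 probe sets, with SEs of 0.450 to 0.806.

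Dcx, doublecortin, which marks migrating young neurons, measured 4048, 1447 and 4984 on the control arrays and 2987, 1638 and 8194 on the Math2 arrays. The arrays of number 2 were lowest and those of number 3 highest in both groups. The log2 difference was 0.15 (SE 0.569), and it turned to -0.39 without control 2 and -0.48 without Math2 3. Dclk1, its relative with a kinase domain, measured 6256, 6582 and 6218 on the control arrays and 5550, 4538 and 6766 on the Math2 arrays with its brightest probe set (1387276_at), a log2 difference of -0.20 (SE 0.199). Its other tested probe sets had values of -0.18 and -0.26.

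All 4 stathmins were above 0, and 3 of them with quantile normalization, with a median log2 difference of 0.20, or 0.14 after it. Stmn1, the member shared by dividing cells and young neurons, measured 8799, 8768 and 11800.3 on the control arrays and 11105, 9631 and 13361 on the Math2 arrays. Math2 was above its own control in 3 of 3 pairs, and the groups overlapped through control 3. The log2 difference was 0.22 (SE 0.197) and turned to -0.012 with quantile normalization. Stmn2, also known as SCG10 and found in growth cones, measured 652, 673 and 1531 on the control arrays and 881, 1146 and 1958 on the Math2 arrays with its dimmer probe set (1370042_at). This one was above control in 3 of 3 pairs, with a difference of 0.52 on the log2 scale (SE 0.392, limma adjusted p = 1.00, and 0.590 with the replicate block). It was 0.20 without Math2 3, 0.30 without control 1, 0.33 without control 2 and 0.92 without control 3. The brighter Stmn2 probe set (1370041_at) had a log2 difference of 0.073. Stmn3 and Stmn4, the other neuronal stathmins, had log2 differences of 0.27 and 0.19. The family's median ranged from -0.099 to 0.55 when 1 array at a time was left out, being below 0 without control 2 and without Math2 3.

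Both tested neurofilament genes had overlapping groups. Nefm, the medium subunit, measured 270, 247 and 539 on the control arrays and 208, 199 and 573 on the Math2 arrays, a log2 difference of -0.19 (SE 0.456). Ina, alpha-internexin, the subunit that appears first in young neurons, measured 183, 112 and 335 on the control arrays and 79.8, 179 and 557 on the Math2 arrays, a log2 difference of 0.081 (SE 0.624). Both genes were highest on the arrays of number 3. The 2 probe sets of Nefl, the light subunit, and the probe set of Nefh, the heavy one, stayed at or below 64.9 on every array, under every array median, and were not tested.

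The collapsin response mediators had a median log2 difference of 0.31 over 5 genes, which turned to -0.018 with quantile normalization. Without Math2 3 it was 0.057, without control 2 it was 0.20 and without Math2 2 it was 0.49. Dpysl2, the most studied of them and a partner of tubulin dimers, measured 12282, 9932 and 12796 on the control arrays and 16066, 11195 and 16536 on the Math2 arrays. It was above control in 3 of 3 pairs, with a log2 difference of 0.31 (SE 0.200), which turned to -0.020 with quantile normalization. Dpysl4, also called CRMP3, had the highest log2 difference of the 29 genes. It measured 128, 138 and 261 on the control arrays and 237, 225 and 308 on the Math2 arrays, so that only control 3 reached into the Math2 range, and the difference without it was 0.90. The difference was 0.59 (SE 0.354, 95% interval -0.20 to 1.37, limma adjusted p = 1.00) and 0.62 with quantile normalization. Dpysl5, also called CRMP5 and found in the developing brain, was above control in every pair with and without quantile normalization, at a log2 difference of 0.37 (SE 0.381). Crmp1, another neuronal member, had one of -0.063 (SE 0.371), and the 2 probe sets of Dpysl3 had values of -0.061 (SE 0.675) and -0.65 (SE 0.481).

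The 4 growth cone genes were all above 0 by their brightest probe sets, and 3 of them with quantile normalization, with a median log2 difference of 0.16, or 0.092 after it. This median was 0.047 without control 1, 0.29 without Math2 1 and 0.46 without control 3. The brightest probe sets of Gap43, Marcks and Marcksl1 belonged to the 4% next to the brightest 1%. Of all tested probe sets there 74.6% were above 0, and 44.2% with quantile normalization. Of the 9 members there 6 were above 0, and 3 with quantile normalization. Marcks, a substrate of protein kinase C that binds actin and the membrane, measured 5354, 7782 and 6855 on the control arrays and 8363, 9332 and 8258 on the Math2 arrays with its brightest probe set (1375523_at). The groups did not overlap, and the log2 difference was 0.39 (SE 0.194, 95% interval -0.037 to 0.82, exact permutation p = 0.1, limma adjusted p = 1.00), or 0.21 with quantile normalization. Its 6 tested probe sets all lay above 0, from 0.052 to 0.78, and 1 of them, 1373432_at, turned to -0.058 with quantile normalization. Marcksl1, its smaller relative, measured 5279, 7811 and 9354 on the control arrays and 8592, 9089 and 9430 on the Math2 arrays. Only control 3 overlapped with Math2, and the log2 difference was 0.31 (SE 0.222), or 0.14 with quantile normalization, 0.079 without control 1 and 0.49 without control 3. Gap43, the classic protein of growing axons, measured 8855, 8339 and 9451 on the control arrays and 9050, 7804 and 10231 on the Math2 arrays. Its log2 difference was 0.017 (SE 0.177), turned to -0.17 with quantile normalization and was also below 0 without control 2 and without Math2 3. Basp1, which resembles Gap43 in its place and partners, had one of 0.0076 (SE 0.450).

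**Figure D3:**
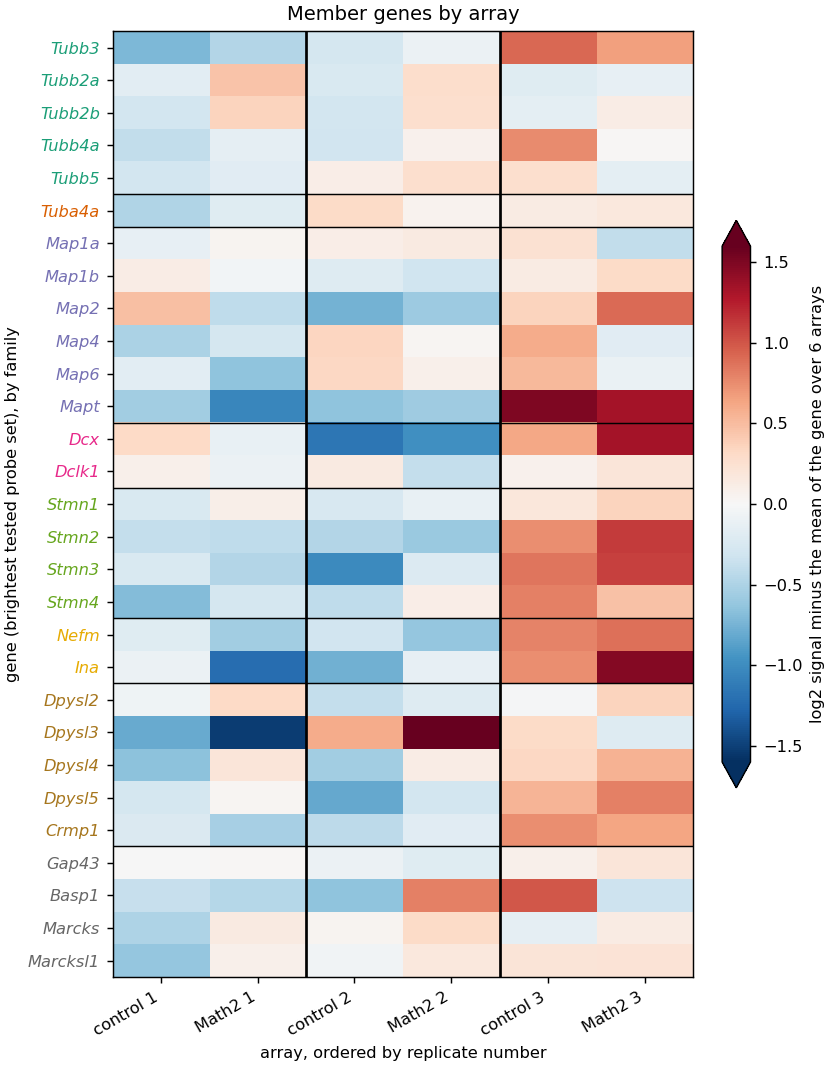
Log2 signal of the brightest tested probe set of 29 member genes, each relative to its own mean over 6 arrays (colour, clipped at the ends of the scale), on the arrays ordered by replicate number (columns). Red cells gather in the columns of number 3 for Mapt, Dcx, Stmn2, Stmn3, Nefm and Ina, under control as under Math2.

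Part of the members differed between the replicate numbers. This comparison was added after the member values had been seen. What the numbers stand for is not in the labels. In the limma fit with vector and number as terms, an F test of the number passed an adjusted p of 0.05 for 13 of 50 member probe sets (26%), which stood for 10 genes, beside 651 of all tested probe sets (3.50%). With quantile normalization it passed for 15 (30%), the 13 among them, beside 840 of all (4.51%). Of the 13, 11 were highest on number 3, with the control and the Math2 array both above the other 4. Over all members 22 of 50 (44%) had both number 3 arrays above the other 4, beside 10.8% of all tested probe sets. The mean log2 level of the 29 genes, relative to each gene's own mean, was -0.28, -0.28 and 0.45 on the control arrays and -0.25, -0.040 and 0.41 on the Math2 arrays. The same measure over everything tested stayed between -0.083 and 0.070.

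The counts of the F test depended on settings. Without the intensity trend in the variance 0 members (smallest limma adjusted p = 0.0952) and 7 of all probe sets passed, while 22 members (44%) had an unadjusted p under 0.05, beside 18.1% of all. By the same test, without the filter on dim probe sets 5 of 59 members and 108 of all passed. Leaving out 1 array at a time gave 5 members (without Math2 3) to 20 (without control 2, and without Math2 2), of 48 to 51 tested. Over all probe sets it gave 427 to 1562. The ends of these ranges are not matched by array, so no share over all can be read from them. In the settings that used 6 arrays, the filter and the trend, 10 member probe sets passed each time. These were 2 of Mapt, 2 of Dclk1, and 1 each of Stmn2 (1370041_at), Stmn3, Dcx, Tubb3, Dpysl5 and Dpysl3 (1388101_at). The matching count over all tested probe sets is not given here, so the 10 have no share beside them.

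Among the members, Mapt had the smallest p of the F test. Folds here and below come from means on the log2(signal + 7.42) scale. The Mapt probe set 1387071_a_at measured 154, 274 and 1512 on the control arrays and 129, 293 and 841 on the Math2 arrays, and number 3 lay 5.47-fold above the mean of the others (limma adjusted p = 0.0041). The second, 1368137_at, measured 373, 350 and 1570 on the control arrays and 264, 370 and 1404 on the Math2 arrays, 4.34-fold above (limma adjusted p = 0.0051). The third, 1368138_at, was also highest on number 3 in both groups, 2.25-fold above, and did not pass (limma adjusted p = 0.0794). Dcx, with the signals given above, lay 2.76-fold above on number 3 (limma adjusted p = 0.0071). The dimmer Dclk1 probe sets measured 415, 191 and 982 against 193, 184 and 1259 (1389706_at, 4.71-fold, limma adjusted p = 0.0084) and 598, 622 and 1195 against 425, 512 and 1381 (1369686_at, 2.39-fold, limma adjusted p = 0.0320). The brightest Dclk1 probe set showed no such rise, with geometric means of 5892, 5465 and 6486 over the pairs of number 1, 2 and 3 (limma adjusted p = 0.718). The probe sets of this gene thus disagreed on the difference between numbers.

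Of the stathmins, Stmn2 and Stmn3 passed, while Stmn1 (limma adjusted p = 0.277) and Stmn4 (limma adjusted p = 0.0781) did not. Stmn2 (1370041_at) measured 2623, 2473 and 5713 on the control arrays and 2571, 2259 and 7431 on the Math2 arrays, 2.63-fold above on number 3 (limma adjusted p = 0.0095), and its other probe set passed too (limma adjusted p = 0.0403). Stmn3 measured 1178, 683 and 2517 on the control arrays and 1002, 1196 and 2963 on the Math2 arrays (2.74-fold, limma adjusted p = 0.0180). Both number 3 arrays stood clear of the others in each case. Tubb3 measured 505, 685 and 1587 on the control arrays and 600, 782 and 1317 on the Math2 arrays (2.26-fold, limma adjusted p = 0.0307). Dpysl5 measured 1201, 821 and 2135 against 1494, 1192 and 2552 (2.02-fold, limma adjusted p = 0.0319), and Crmp1 1427, 1252 and 2819 against 1154, 1477 and 2592 (2.04-fold, limma adjusted p = 0.0426). Just outside the threshold were Nefm (limma adjusted p = 0.0539), Ina (0.0678) and Map2 (0.0686), of which Map2 was high on control 1 as well.

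**Figure D4:**
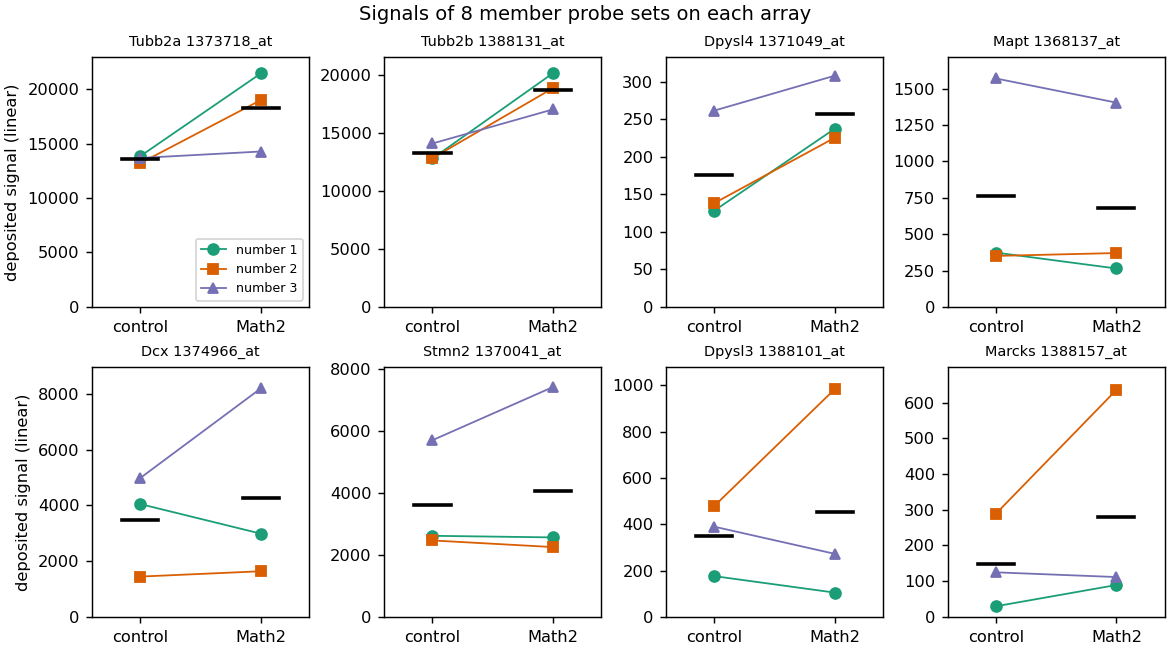
Deposited signal (y axis, linear, from 0) of 8 member probe sets on each array; lines join the control and the Math2 array of a replicate number and black bars are group means over 3 arrays. In these signals Tubb2a, Tubb2b and Dpysl4 have Math2 above control within each number (Tubb2a not so with quantile normalization). Mapt, Dcx and Stmn2 are highest on number 3 in both groups. The brighter Dpysl3 probe set (1388101_at) and a dim Marcks probe set (1388157_at) are highest on number 2.

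The remaining 2 of the 13 were highest on number 2. Marcks 1388157_at measured 29.9, 289 and 125 on the control arrays and 89.4, 635 and 112 on the Math2 arrays (limma adjusted p = 0.0137). None of the other 5 Marcks probe sets passed (limma adjusted p of 0.146 to 0.601), and they did not share 1 order: 3 were highest on number 2 as well, among them 1375523_at with geometric means of 6692, 8522 and 7524 over the pairs of number 1, 2 and 3, while 1370948_a_at was highest on number 1 and 1389838_at on number 3. Dpysl3, a mediator of young neurons, measured 176, 479 and 390 on the control arrays and 105, 983 and 273 on the Math2 arrays (1388101_at, limma adjusted p = 0.0242). Its other tested probe set, 1391010_at, had the same order without passing, at 49.4, 126 and 102 on the control arrays and 28.9, 85.3 and 56.8 on the Math2 arrays (limma adjusted p = 0.218). The 5′ control probe set of Actb, which reads the far end of the transcript, was likewise highest on number 2 within each group, at 164, 1092 and 783 on the control arrays and 387, 973 and 280 on the Math2 arrays. So was the 3′ control probe set of Actb, at 3732, 12009.8 and 10549 on the control arrays and 5546, 16680.1 and 5163 on the Math2 arrays. The ratio of the 3′ to the 5′ signal of Gapdh, a gauge of transcript completeness in the labelled material, was 13.8, 3.74 and 5.04 on the control arrays and 8.48, 5.997 and 8.14 on the Math2 arrays, lowest on number 2 within each group. The same ratio of Actb was 22.7, 11.0 and 13.5 on the control arrays and 14.3, 17.1 and 18.4 on the Math2 arrays, lowest on number 2 among the controls but on number 1 among the Math2 arrays. The part of transcript completeness in these 2 values was not tested.

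Measures of the cells and of the labelling also differed between numbers. Of 9 listed neuron markers 7 were tested, and 2 of them, the synaptic protein gene Snap25 and Gad1, an enzyme of inhibitory neurons, differed between numbers (limma adjusted p = 0.0074 and 0.0096). The summed signal of the 9 was 4619, 3613 and 5937 on the control arrays and 4086, 3937 and 8072 on the Math2 arrays, highest on number 3 in both groups. Each tested marker was too, except Eno2, which was highest on number 2 among the controls (982, 1741 and 1102). Neurod6, with the signals given above, differed between numbers too (limma adjusted p = 0.0058), as did Flt1 of endothelium (limma adjusted p = 0.0312). Pdgfra of oligodendrocyte precursors (limma adjusted p = 0.0359) was lowest on number 2 and, among the controls, highest on number 1. The summed lists of the oligodendrocyte lineage and of endothelium were highest on number 3 within each group. The summed astrocyte markers were 17056, 17792 and 13911 on the control arrays and 19294, 22511 and 11998 on the Math2 arrays, lowest on number 3 in both groups, and 0 of the 6 tested passed. Most of this sum came from Slc1a3 (13328, 11734 and 9178 against 14623, 15186 and 9139). Among the controls Aqp4 was also lowest on number 3 (888, 771 and 596), while Gfap, Aldh1l1, S100b and Aldoc were not. Aldoc went the other way there (413, 477 and 596). On the Math2 arrays each of the 6 was lowest on number 3. The summed markers of neural progenitors were also lowest on number 3, at 18974, 16271 and 14480.2 on the control arrays and 16669, 15692 and 13253 on the Math2 arrays, with 0 of 7 past the threshold. Of these genes only Mki67 was lowest on number 3 in both groups. Sox2 and Pax6 were lowest on number 2 among the Math2 arrays. Nes, Hes1, Hes5 and Top2a were not lowest on number 3 among the controls. Hes5 was highest on it there (50.9, 29.9 and 59.2). Poly-A spike-ins, added to the RNA before amplification, had geometric means of 11490, 5219 and 1354 on the control arrays and 28707, 11958 and 4657 on the Math2 arrays, again lowest on number 3. The part of cell composition and of these labelling measures in the members' values was not tested.

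A further 72 genes of the cytoskeleton and of neurite growth, among them motors, actin regulators and tubulin cofactors, served as the wider pathway. Of these 63 were tested by their brightest probe set, and 0 passed for the vector in limma (2 at an unadjusted p under 0.05), with 26 above 0 and 37 below and a median log2 difference of -0.048, or -0.072 with quantile normalization. The smallest p-values belonged to Vim, the intermediate filament of glia and progenitors (log2 difference 0.51, SE 0.194, -0.033 with quantile normalization), and Dync1h1, the heavy chain of dynein (-0.52, SE 0.230, -0.50 with quantile normalization). They were followed by Actg1, cytoplasmic gamma-actin (0.35, SE 0.168, -0.11 with quantile normalization), and Tbca, a tubulin folding cofactor (0.42, SE 0.209, 0.073 with quantile normalization). Between replicate numbers 1 of the 63 passed (1.59%), Dync1i1, an intermediate chain of dynein (limma adjusted p = 0.0168). By their brightest probe sets, 8 of the 29 member genes (27.6%) did.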

How the data were processed

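The deposited table gives linear signal intensity, 1 value for each probe set on each array. MAS5 is named in the submitters' processing notes, without settings. The trimmed mean was 500 on each array, and no detection calls were used. The tests left out 57 control probe sets. Symbols came from the platform annotation and sequences from RefSeq (GRCr8).

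Here the intensity was turned into log2(signal + 7.42), the pseudocount being the 10th percentile of positive values. The tests took probe sets whose mean reached the 40th percentile (6.07) and used limma 3.58.1 (R 4.3.3) with a linear model and eBayes moderation that followed the trend of variance with intensity. P-values were two-sided, adjusted by Benjamini-Hochberg over all 18625, with a threshold of 0.05. The fit was also run on simulated data with planted differences and independent scatter. Those data lacked the brightness shift between the groups, so the run does not cover it. Single values were compared by an exact two-sided permutation test.

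Arrays of number 1, 2 and 3 deviated together from their group means (r = 0.326, 0.476 and 0.372 across probe sets), so the numbers were treated as pairs on the basis of the data. The fit without the replicate block was the planned one. Quantile normalization, median centring, pseudocounts of 1 and 32, no filter, a 60th percentile filter, no trend and leaving out each array were the alternatives. The F test of the number was added after seeing the data.

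The members and lists were chosen with earlier results of these data known. Given on every array are, per family, the brightest gene, the 2 with the smallest p, any gene with a probe set past the threshold for the vector, and genes whose probe sets differed in sign by at least 0.5 on the log2 scale. Probe sets described for the number test were chosen after their values were seen. The precision is limited by 3 arrays per group.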

Additional observations from a re-analysis of the deposited data

How the results depend on the processing

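For the vector, 0 members passed in limma under every alternative run, with smallest adjusted p-values of 0.421 to 1.00. An unadjusted p under 0.05 was reached by 2 without the replicate block, beside 3.19% of all, and by 5 with it, beside 7.70% of all. With quantile normalization it was reached by 0, beside 2.59% of all. Over all probe sets 3 passed with the replicate block and 5 with the block and quantile normalization. The members' median log2 difference ran from -0.12 to 0.38 when 1 array at a time was left out and was 0.14 with the mean over a gene's probe sets. The number of genes above 0 ran from 11 to 25 with 1 array left out. Of the 19 named probe sets, 10 kept their direction in all alternatives. With quantile normalization, with and without the block, Tubb2a turned to -0.037, Dpysl2 to -0.020, Gap43 to -0.17 and Stmn1 to -0.012.

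Leaving out 1 array at a time changed the sign of 6 named probe sets, whose values ran from -0.21 to 0.18 for Tuba4a, -0.48 to 0.68 for Dcx, -0.078 to 0.12 for Gap43, -0.19 to 0.12 for Map1b, -0.63 to 0.71 for Ina and -0.68 to 0.15 for Nefm. The medians of the doublecortin family and of the neurofilaments changed sign too, at -0.41 to 0.32 and -0.66 to 0.37. So did those of the beta-tubulins, at -0.21 to 0.41, and of the stathmins, at -0.099 to 0.55. The cause was not tested.

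For the replicate numbers, 5 members and 108 of all probe sets passed without the filter, and 0 and 7 without the intensity trend. With 1 array left out, 5 to 20 members and 427 to 1562 of all passed, ranges whose ends are not matched by array. Signals near or under the array medians of 102 to 120 may not be above background.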
